A study of Musa acuminata AAA Group with 12 samples.

Results

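The most abundant genes of banana pulp were chosen by their measured level, as the gene IDs whose FPKM was 500 or higher in every library. FPKM is the fragment count of a gene divided by its length and by the number of fragments mapped in that library. This rule gave 65 of the 35273 gene rows, so the further limit of 200 genes was not reached. Pulp of Cavendish banana (Musa acuminata, AAA Group) was taken on day 1 and day 7 of ripening from uncoated fruit and from fruit coated with 1.25% chitosan, a polysaccharide that forms an edible film on the peel. Control fruit form the groups 1K and 7K and coated fruit the groups 1A and 7A, each named for its day and holding 3 biological replicates (a, b and c), which makes 12 libraries in 4 groups. Every fruit had been treated with ethylene, the controls included, so no group ripened without it. Cavendish carries 3 chromosome sets, and its reads were mapped to the genome of a doubled haploid plant of Musa acuminata, DH Pahang version 2.

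Banana is a climacteric fruit, in which a burst of ethylene sets off ripening. In the pulp, starch is then broken down to sugars, cell walls loosen, and aroma compounds are made. A small number of genes usually supplies a large part of the mRNA of such a tissue, and because FPKM is a relative measure, a change in these genes shifts the values of all others. The deposited tables give gene IDs without product names, and 0 of the 65 IDs matched the RefSeq gene table of the Cavendish Baxijiao assembly. The genes are therefore described by ID, position and level, no role is given to any of them, and neither the labelled tissue nor a pathway could be checked by marker genes. Coordinates are those of the deposited tables on DH Pahang version 2.

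The libraries differ in a way that day and coating do not explain. The study's read statistics list a lower read GC percentage for 1K_c, 1A_a, 1A_b, 7K_c and 7A_c than for the other 7 libraries, so 1K, 7K and 7A each hold 1 such library and 1A holds 2. For each of these libraries the study also lists a lower percentage of mapped reads and fewer detected transcripts than for any of the other 7. The FPKM sum of a library lay between 887932 and 969329 at lower read GC and between 738359.8 and 813937 at higher read GC. The interval bounds of the tables imply between 6136363 fragments in 7A_c and 16553611 in 7K_a. The study's read statistics list more reads for 7A_c than for any other library but 7K_a, so its implied total does not follow its sequencing depth. By these bounds the 65 genes lie far above the depth limit. The smallest number of fragments implied for any of their values was 1931. The widest interval was 4.55% of the value on either side, against a median coefficient of variation of 21.7% between the 3 libraries of a group. Implied fragments are not always counts. For Ma03_g13710 they stayed between 2209 and 2642 while its FPKM ran from 1968 to 9040.

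Ma03_g16510 (chromosome 3, 19115091 to 19115967) had the highest FPKM of all genes in each of the 12 libraries. Its FPKM was 33253, 44896 and 90534 in 1K, 81772, 90054 and 38499.8 in 1A, 34277, 57677 and 120140.0 in 7K and 32216, 35489 and 87459 in 7A. These values fall apart by read GC rather than by group, with 32216 to 57677 in the 7 libraries of higher and 81772 to 120140.0 in the 5 of lower read GC. Below it the levels dropped steeply. Over the 12 libraries 8 of the 65 genes had a mean FPKM of at least 10000, 46 had a mean from 1000 to 10000, and 11 had a mean under 1000. The next genes in order of mean FPKM were Ma00_g05330 (mean 16891), Ma02_g16130 (16516), Ma10_g00760 (14519.7), Ma10_g22670 (11214), Ma03_g11500 (10779), Ma04_g04750 (10726), Ma09_g31140 (10279), Ma01_g08810 (8153) and Ma07_g19730 (8125). Their ranges over the libraries overlap widely. Ma00_g05330, for example, ran from 7323 to 53322 and Ma07_g19730 from 4985 to 13854. The rule used these levels, so they are a description and carry no test.

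**Figure D1:**
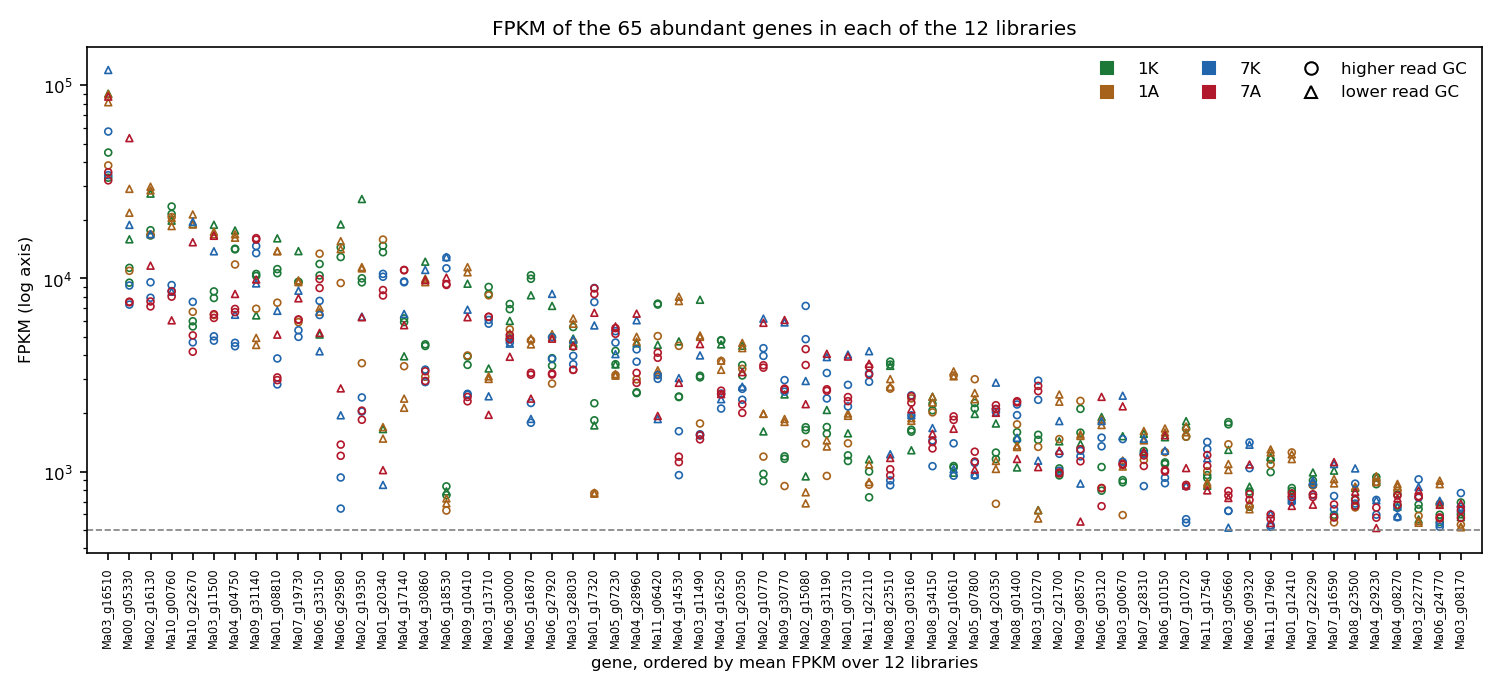
FPKM (log axis) of each of the 65 abundant genes in each of the 12 libraries, ordered by mean FPKM; colour gives the group, circles are libraries of higher and triangles of lower read GC, and the dashed line is the FPKM of 500 that chose the genes. Ma03_g16510 lies above every other gene in each library, and for many genes the triangles lie apart from the circles.

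Ma00_g05330 is the single one of the 65 genes on sequence not placed on a chromosome (chrUn_random, 46031446 to 46032121). Its FPKM was 11350.2, 9513 and 15954 in 1K, 21895, 29117 and 10956 in 1A, 7323, 9197 and 18948 in 7K and 7532, 7586 and 53322 in 7A. Replicate c of 7A, the library with the fewest implied fragments though not the fewest reads, held the highest value, above the 3 values of 7K and the other 2 of 7A. Another copy of a gene on unplaced sequence can share fragments with it, which was not tested.

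The highest value of a gene over the 12 libraries was between 1.47 times (Ma07_g22290) and 29.6 times (Ma06_g29580) its lowest, with a median of 3.57. This ratio was under 2 for 15 of the 65 genes and over 10 for 6. The 3 genes just inside the limit were Ma04_g29230, with a lowest FPKM of 510.1 in 7A_c, Ma03_g05660, with 513 in 7K_c, and Ma03_g08170, with 515 in 1A_b. The 3 just outside it were Ma07_g15550, with a lowest FPKM of 476 in 7K_b, Ma05_g07240, with 474 in 1A_c, and Ma04_g29640, with 471 in 7A_c. An FPKM of 500 was reached in at least 1 library by 357 genes, of which the 65 are 18.2%, and a mean of 500 by 101 genes that are not among them. In all 3 libraries of a group it was reached by 124 genes (1K), 130 (1A), 118 (7K) and 111 (7A).

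The 65 genes lie on all 11 chromosomes, with 11 on chromosome 3 and 9 each on chromosomes 4 and 6. Their loci were short, with a median span of 1402 bp (609 to 16478 bp) against 4285 bp over the 19746 tested genes, which had 3 or more libraries at an FPKM of 1 or above. Of the 65, 23.1% span less than 1000 bp, against 9.74% of tested genes. The span is that of the locus with its introns, and a short gene reaches a given FPKM with fewer fragments. Next to each other, with no other gene row between them, lay Ma01_g20340 and Ma01_g20350, Ma03_g11490 and Ma03_g11500, and Ma08_g23500 and Ma08_g23510. Where such neighbours are near-identical copies, fragments can be split between them, and the tables do not show how.

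The 65 genes held between 31.6% (7K_a) and 44.96% (1K_c) of the FPKM sum of a library. The share was 39.4%, 40.6% and 44.96% in 1K_a, 1K_b and 1K_c, and 42.0%, 44.2% and 36.0% in 1A_a, 1A_b and 1A_c. At day 7 it was 31.6%, 34.6% and 40.7% in 7K_a, 7K_b and 7K_c, and 33.1%, 33.5% and 42.6% in 7A_a, 7A_b and 7A_c. Group means of the share were 41.7% ± 2.91 for 1K and 40.7% ± 4.21 for 1A, and 35.6% ± 4.63 for 7K and 36.4% ± 5.36 for 7A (SD, n = 3 each). Within each group the library or libraries of lower read GC lay highest, so the groups overlap. In the libraries of lower read GC the share was 42.0% to 44.96% at day 1 and 40.7% to 42.6% at day 7, and in those of higher read GC it was 36.0% to 40.6% at day 1 and 31.6% to 34.6% at day 7.

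Day 7 minus day 1 came to -5.16 percentage points, which did not pass the test (two-sided exact permutation test with libraries exchanged within each kind of fruit, p = 0.065, or 0.39 by Benjamini-Hochberg over the 6 comparisons of the share, where the smallest p is 0.005). Within the read GC groups the difference was -3.58 points (two-sided exact permutation test, p = 0.028, smallest p 0.0093), with -4.80 points among the libraries of higher and -2.37 among those of lower read GC. Leaving out the highest gene from both the genes and the sum gave -5.63 points (two-sided exact permutation test, p = 0.01). With each library left out in turn the difference ran from -6.71 to -4.15 points (two-sided exact permutation tests, p = 0.03 to 0.14). At an unadjusted p under 0.05 it passed without 7K_c (-6.42) and without 7A_c (-6.71), and did not pass without any of the other 10 libraries. Coated minus control came to -0.0826 points within days (two-sided exact permutation test, p = 0.985), and the sign of this difference turned under several settings. The 4 exact permutation tests of 3 libraries against 3 cannot go below p = 0.1. They gave -6.01 points for day in control fruit and -4.31 in coated fruit (p = 0.3 each), and -0.935 for coating at day 1 (p = 0.9) and 0.769 at day 7 (p = 0.7, two-sided exact permutation tests; Benjamini-Hochberg values from 0.6 to 0.985).

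**Figure D2:**
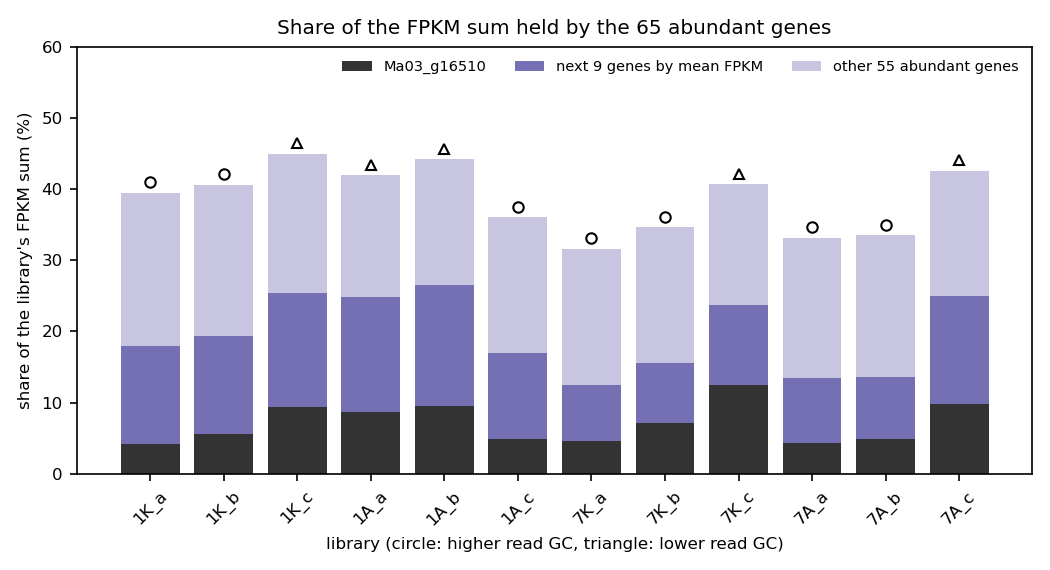
Share of each library's FPKM sum (%) held by Ma03_g16510, by the next 9 genes and by the other 55 of the 65 abundant genes; the symbol above each bar gives the read GC group (circle higher, triangle lower). The whole bars run from 31.6% in 7K_a to 44.96% in 1K_c, and the 5 libraries of lower read GC are the 5 highest.

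The share of the highest genes varied more between the libraries than that of the rest. Ma03_g16510 alone held 4.22% (1K_a) to 12.4% (7K_c) of the FPKM sum. The 10 genes with the highest mean held 12.5% to 26.6%, whereas the other 55 held a narrower 17.0% to 21.5%. Counted in implied fragments, in which long genes weigh more, the 65 genes held 22.3% (7K_a) to 37.1% (1K_c) of a library.

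Read GC separated the levels of many of the 65 genes within every group. On the scale log2(FPKM + 1), the libraries of lower read GC were above those of higher read GC in all 4 groups for 32 genes (22.9% of tested genes) and below them in all 4 for 17 genes (50.6% of tested genes), and 16 genes were mixed. A difference of at least 2-fold in all 4 groups was seen for 8 genes that were higher (2.22% of tested genes) and 3 that were lower (5.65% of tested genes) in the libraries of lower read GC. The 8 were Ma03_g16510, Ma10_g22670, Ma03_g11500, Ma02_g19350, Ma04_g30860, Ma09_g10410, Ma03_g11490 and Ma09_g30770. Their folds lay between 2.12 (Ma09_g30770) and 3.54 (Ma04_g30860) over the 4 groups. The 3 were Ma01_g20340, Ma03_g13710 and Ma03_g10270.

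The widest of these differences was that of Ma01_g20340 (chromosome 1, 17620823 to 17621956). Its FPKM was 14763, 13674 and 1660.1 in 1K, 1481, 1699 and 15900.2 in 1A, 10209.7, 10566 and 853 in 7K and 8712, 8162 and 1017 in 7A. The 7 libraries of higher read GC held 8162 to 15900.2 and the 5 of lower read GC 853 to 1699, which is 8.28 to 12.2 times lower within the groups. In contrast, Ma10_g22670 (chromosome 10, 31950259 to 31951025) held 4175 to 7566 in the libraries of higher and 15401 to 21454 in those of lower read GC. Values of the 5 and the 7 libraries did not overlap for 14 of the 65 genes, 11 above (3.74% of tested genes) and 3 below (15.6%). The median absolute difference between the read GC groups was 0.51 on the log2 scale over the 65 genes, and 0.49 over all tested genes. Because the read GC group adds to the spread within each group, the counts for day and coating are given below both without it and with it as a block in the fit, and values of single genes are without it unless the block is named. Mapped reads, detected transcripts and FPKM sums divide the libraries in the same way. What else in the fruit, the RNA or the libraries goes with read GC was not tested.

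**Figure D3:**
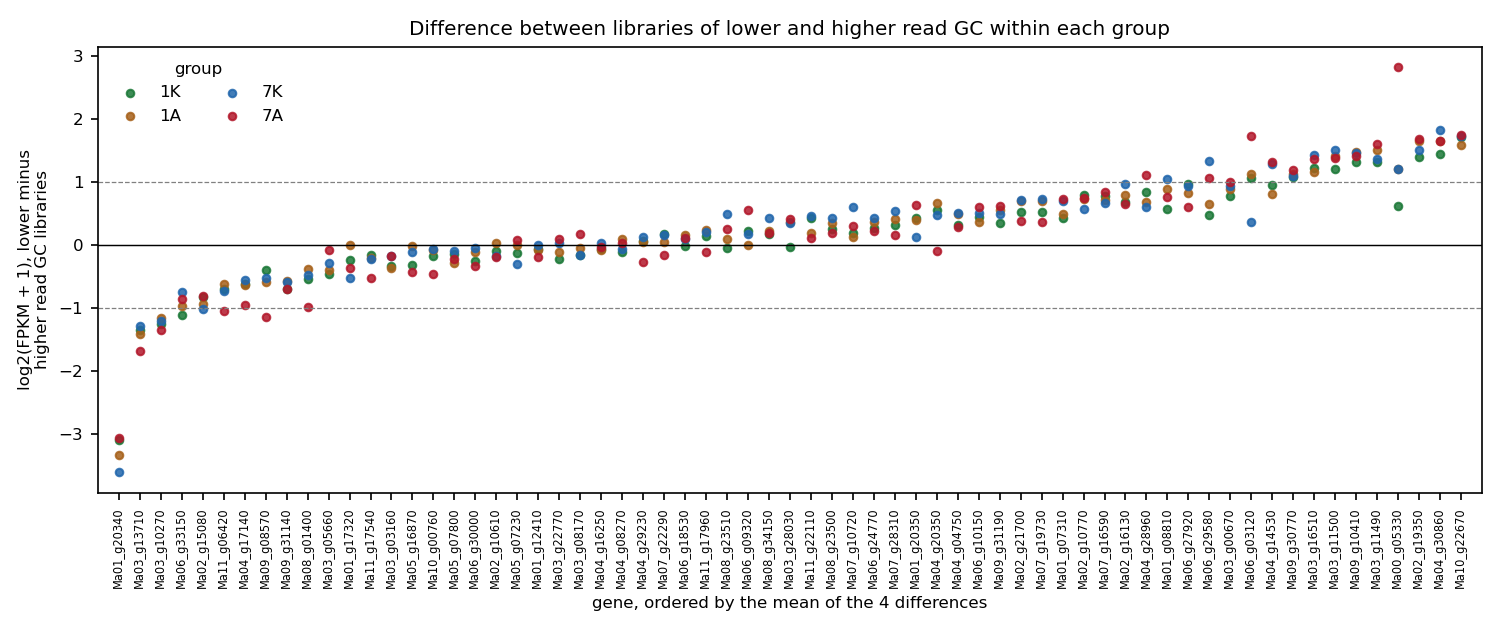
Difference in log2(FPKM + 1) between the libraries of lower and higher read GC within each of the 4 groups (colours), for each of the 65 genes ordered by the mean difference; dashed lines mark a 2-fold difference. The 4 groups lie close together for most genes, with Ma01_g20340 lowest and Ma10_g22670 at the upper end.

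From day 1 to day 7, 11 of the 65 genes rose and 15 fell in control fruit, and 12 rose and 20 fell in coated fruit (limma, adjusted p under 0.05). Over all tested genes 31.1% rose and 14.8% fell in control fruit, and 29.2% rose and 18.2% fell in coated fruit. Of the 65 genes, 16.9% rose and 23.1% fell in control fruit and 18.5% rose and 30.8% fell in coated fruit, a description that was not tested against other genes. The median log2 fold change was -0.17 over the 65 genes and 0.37 over all tested genes in control fruit, and -0.30 and 0.34 in coated fruit. In both kinds of fruit 21 genes were called, 8 higher and 13 lower at day 7 in both, and 28 genes were called in neither. The like counts over all tested genes were not made, so these numbers are not read as particular to the 65. Every gene called in a fruit type had the same sign in both read GC groups. So did 62 of all 65 genes in control fruit and 56 in coated fruit, called or not, and the share over all tested genes was not counted. The rule limits both falls and rises, since each of the 65 was at an FPKM of 500 or above on both days. A gene that fell to under 500, or rose from under 500, is not among them.

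These counts depended on read GC and on scaling. With the read GC group as a block, the calls in control fruit came to 51 (74.7% of tested genes), 20 higher at day 7 (51.4%) and 31 lower (23.3%). In coated fruit 52 were called (72.1%), 18 higher (44.3%) and 34 lower (27.8%). With the replicate as a block in the 6 control libraries, where the same letters varied together, 48 were called (73.4% of tested genes), 19 higher (50.5%) and 29 lower (22.9%). Replicate c is the library of lower read GC in both control groups, so this block holds the read GC split as well. With median-of-ratios scaling, which moves the median of all tested genes from 0.37 to 0.02 in control and from 0.34 to 0.05 in coated fruit, 5 rose and 19 fell in control fruit and 6 rose and 20 fell in coated fruit. With quantile normalization 13 rose and 14 fell in control fruit and 15 rose and 15 fell in coated fruit. A common FPKM sum gave 10 and 16 in control fruit, and 15 and 15 in coated fruit. Of the 19746 tested genes, 8446 were called in control and 9231 in coated fruit with median-of-ratios scaling, in either direction. These numbers were 8879 and 9600 with quantile normalization, and 8139 and 8828 with a common FPKM sum.

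**Figure D4:**
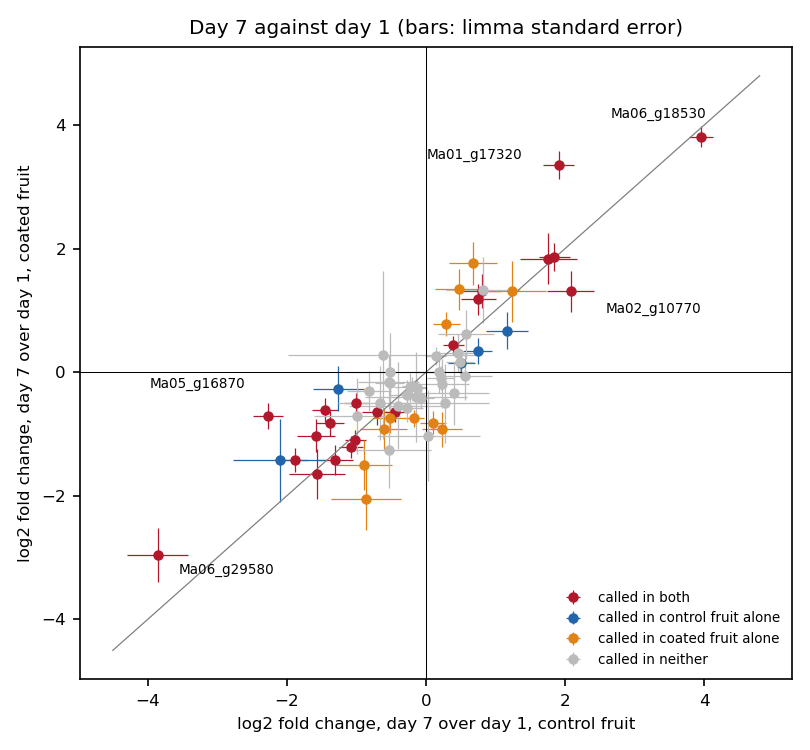
Log2 fold change from day 1 to day 7 of the 65 genes in control fruit (x axis) and coated fruit (y axis), with limma standard errors and coloured by whether the adjusted p was under 0.05; the grey line marks equal change. Ma06_g18530 rose most in both, and Ma06_g29580 fell most in both.

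Ma06_g18530 (chromosome 6, 12670939 to 12672146) moved from the lower end of the 65 genes to their upper end. Its FPKM was 838, 756 and 789.8 in 1K, 686, 726 and 628 in 1A, 11284, 12837 and 12912 in 7K and 9254, 9359 and 10106 in 7A. All 6 day 7 values lay far above all 6 day 1 values, in libraries of either read GC. It rose in control fruit (log2 fold change 3.95, standard error 0.17, adjusted p = 1.45e-07, limma) and in coated fruit (log2 fold change 3.81, standard error 0.17, adjusted p = 1.17e-07, limma).

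Ma01_g17320 (chromosome 1, 12687734 to 12704212) has the longest locus of the 65 genes. Its FPKM was 2259, 1843 and 1734 in 1K, 777, 769 and 772 in 1A, 7549, 8929 and 5713 in 7K and 8309, 8888 and 6644 in 7A. It rose in control fruit (log2 fold change 1.91, standard error 0.23, adjusted p = 6.78e-05, limma) and in coated fruit (log2 fold change 3.35, standard error 0.23, adjusted p = 1.21e-06, limma), from a day 1 level that was lower in the coated fruit. Ma02_g10770 (chromosome 2, 20229361 to 20232648) rose from 1159.9 ± 396 to 4841 ± 1188 in control fruit and from 1726 ± 459.9 to 4300.1 ± 1381 in coated fruit (SD, n = 3 each), with log2 fold changes of 2.08 and 1.31 (limma, adjusted p = 5.47e-04 and 0.0086). The rise in coated fruit did not pass with median-of-ratios scaling (limma, adjusted p = 0.15) or with no filter on low values (0.057). Ma11_g22110 (chromosome 11, 26001102 to 26003487) rose about equally in both, from 965 ± 213 to 3449.9 ± 669.9 and from 942 ± 127 to 3428 ± 224 (SD, n = 3 each), with log2 fold changes of 1.84 and 1.87 (limma, adjusted p = 8.42e-05 and 7.07e-05).

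Ma06_g29580 (chromosome 6, 30915852 to 30917007) fell most in both kinds of fruit. Its FPKM was 12912, 14497 and 19056 in 1K, 14187, 15606 and 9473 in 1A, 643, 932 and 1957 in 7K and 1379.8, 1207 and 2697 in 7A. The lowest day 1 value lay well above the highest day 7 value, and at day 7 the libraries of lower read GC, 7K_c and 7A_c, were the highest of their groups. The values differed by day in control fruit (log2 fold change -3.86, standard error 0.44, adjusted p = 5.30e-05, limma) and in coated fruit (log2 fold change -2.95, standard error 0.44, adjusted p = 3.06e-04, limma). Within control fruit the log2 fold change was -4.14 among the libraries of higher and -3.28 among those of lower read GC.

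Ma05_g16870 (chromosome 5, 19090192 to 19091719) fell in control fruit from 10390.2, 9966 and 8186 in 1K to 2266, 1790.4 and 1874 in 7K (log2 fold change -2.27, standard error 0.21, adjusted p = 1.43e-05, limma). In coated fruit it went from 4557, 4887 and 4778 in 1A to 3247, 3175 and 2387 in 7A (log2 fold change -0.70, standard error 0.21, adjusted p = 0.02, limma), a call that was lost with no filter on low values (limma, adjusted p = 0.39), with quantile normalization (0.14), in the 6 libraries compared alone (0.065), with a common FPKM sum (0.13), without 1A_b (0.06) and without 7A_c (0.05). Ma02_g19350 (chromosome 2, 25535134 to 25536811) was at 9548, 10022 and 25789 in 1K and 2046, 2420.5 and 6341 in 7K, where the library of lower read GC is the highest of each group. It fell in control fruit (log2 fold change -2.10, standard error 0.67, adjusted p = 0.025, limma), a call lost with no filter on low values (limma, adjusted p = 0.18), without 1K_c (0.092), without 7K_a (0.091) and without 7K_b (0.084). In coated fruit the values were 11455, 11279 and 3642 in 1A and 2069, 1855 and 6300.0 in 7A, and the difference did not pass without a block (adjusted p = 0.1) and did with the read GC group as a block (limma, adjusted p = 6.08e-06).

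Of the 10 genes with the highest mean FPKM, 3 fell in both kinds of fruit. Ma10_g00760 (chromosome 10, 2407092 to 2409042) fell from 21698 ± 1835 to 8795 ± 389.9 in control and from 20019.7 ± 1164 to 7566 ± 1322 in coated fruit (SD, n = 3 each; limma, adjusted p = 0.0016 and 9.11e-04). Its 6 day 1 values, from 18682 to 23591, lay above all 6 day 7 values, from 6071 to 9244. Ma04_g04750 (chromosome 4, 3628964 to 3630322) fell from 15380.4 ± 2039 to 5196 ± 1123 and from 15007 ± 2783 to 7323 ± 869 (SD, n = 3 each; limma, adjusted p = 7.92e-04 and 0.0098). The fall in coated fruit did not pass with quantile normalization (limma, adjusted p = 0.062). Ma01_g08810 (chromosome 1, 6316734 to 6317517) fell from 12659 ± 3024 to 4493 ± 2062 and from 11736 ± 3675 to 3723 ± 1210.4 (SD, n = 3 each; limma, adjusted p = 0.0086 and 0.0065). With no filter on low values none of these calls passed (limma, adjusted p = 0.30 to 0.80).

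Without a block, the others of the 10 were called in coated fruit alone or in neither. Ma02_g16130 (chromosome 2, 23605910 to 23608105) fell in coated fruit (log2 fold change -1.50, standard error 0.40, adjusted p = 0.01, limma), with 29866, 28587 and 16884 in 1A against 7603, 7166 and 11652 in 7A. In control fruit it was at 16691, 17780.0 and 27504 in 1K and 7948, 9556 and 16958 in 7K (limma, adjusted p = 0.092 without a block and 1.02e-05 with the read GC group as a block). Ma09_g31140 (chromosome 9, 40986282 to 40987254) rose in coated fruit, from 5472 ± 1310.2 to 13986 ± 3561 (SD, n = 3 each; log2 fold change 1.34, standard error 0.34, adjusted p = 0.0075, limma), and was at 9099.9 ± 2308 and 12557 ± 2773 in control fruit (limma, adjusted p = 0.28 without a block and 3.08e-04 with the read GC group as a block). With no filter on low values both calls in coated fruit were lost (limma, adjusted p = 0.79 for Ma02_g16130 and 0.59 for Ma09_g31140). For Ma03_g16510 the log2 fold change was 0.27 in control and -0.50 in coated fruit (limma, adjusted p = 0.76 and 0.54), within a spread of 70698 ± 44388 in 7K. Outside the 10, Ma04_g14530 (chromosome 4, 10983932 to 10985000) fell in coated fruit from 8043, 7639.7 and 4478 in 1A to 1194, 1119.6 and 2882 in 7A (log2 fold change -2.05, standard error 0.50, adjusted p = 0.0068, limma). In control fruit it was at 2447, 2432 and 4724 in 1K and 959, 1618 and 3048 in 7K (limma, adjusted p = 0.19 without a block and 5.64e-04 with the read GC group as a block). A call in a single kind of fruit does not show that the 2 kinds of fruit differ, which is the interaction term given below.

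Coated and control fruit differed at day 1 in 4 of the 65 genes (5.63% of tested genes), 2 higher (3.46% of tested genes) and 2 lower (2.16%) in coated fruit (limma, adjusted p under 0.05). With the read GC group as a block 9 were higher (12.9% of tested genes) and 21 lower (12.9%). For 17 of the 65 genes, all values in 1A lay to the same side of all values in 1K (21.6% of tested genes). The count of calls without a block was 2 without 1K_a, 1K_b, 1A_a, 1A_b or 1A_c, each left out in turn, and 2 with median-of-ratios scaling. Over all tested genes the calls fell from 1111 to 528, 608, 549, 709 and 882 in these fits, and numbered 1350 with median-of-ratios scaling. In the libraries of higher read GC alone, 1A keeps a single library, so the count of calls is not read. The median log2 fold change there was -0.11 over the 65 genes and 0.044 over all tested genes.

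Ma02_g10610 (chromosome 2, 20124108 to 20125196) was higher in coated fruit at day 1. Its FPKM was 1069, 1049 and 987 in 1K, 3114, 3303 and 3140.3 in 1A, 952, 1401 and 1029 in 7K and 1931, 1852 and 1666 in 7A. The 3 values of 1A lay close together and above all other libraries, whatever their read GC. The difference at day 1 (log2 fold change 1.62, standard error 0.18, adjusted p = 5.82e-04, limma) passed under all 26 alternatives tried. At day 7 the 3 coated values again lay above the 3 control values, with a log2 difference of 0.71 that did not pass without a block (limma, adjusted p = 0.27) and passed with the read GC group as a block (limma, adjusted p = 0.0073). From day 1 to day 7 it fell in coated fruit (log2 fold change -0.81, standard error 0.18, adjusted p = 0.0043, limma).

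Ma01_g12410 (chromosome 1, 9013045 to 9019133) was also higher in coated fruit at day 1, by a smaller amount. Its FPKM was 822, 793 and 775 in 1K, 1228, 1161 and 1257 in 1A, 719.7, 696 and 709.9 in 7K and 771, 739 and 664 in 7A. The 3 values of 1A lay above the values of every other library. The difference (log2 fold change 0.61, standard error 0.14, adjusted p = 0.027, limma) did not hold under 13 of 26 alternatives, among them quantile normalization (limma, adjusted p = 0.30), a common FPKM sum (0.17) and median-of-ratios scaling (0.082), while the log2 fold change stayed between 0.41 and 0.70. The call was lost too without each of the 6 day 1 libraries in turn (limma, adjusted p = 0.07 to 0.11), without 7A_a (0.051) and without 7A_b (0.052).

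Ma01_g17320, the gene that rose so far by day 7, was lower in coated fruit at day 1, at 777, 769 and 772 in 1A against 2259, 1843 and 1734 in 1K (log2 fold change -1.32, standard error 0.23, adjusted p = 0.0065, limma), a call lost with no filter on low values (limma, adjusted p = 0.16). The difference was -1.40 among the libraries of higher and -1.16 among those of lower read GC. Ma05_g16870, which fell by day 7, was at 4557, 4887 and 4778 in 1A against 10390.2, 9966 and 8186 in 1K (log2 fold change -0.998, standard error 0.21, adjusted p = 0.021, limma). Its call did not hold under 10 of 26 alternatives, with adjusted p = 0.55 with no filter on low values, 0.15 in the 6 libraries compared alone, 0.056 with a common FPKM sum, 0.069 under median-of-ratios scaling and 0.054 under quantile normalization (limma) and from 0.056 to 0.1 without 1K_a, 1K_b, 1A_a, 1A_b or 1A_c, while the read GC block gave 1.28e-04. At day 1, Ma01_g17320 was further from its day 7 level in coated than in control fruit, and Ma05_g16870 was nearer to it.

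**Figure D5:**
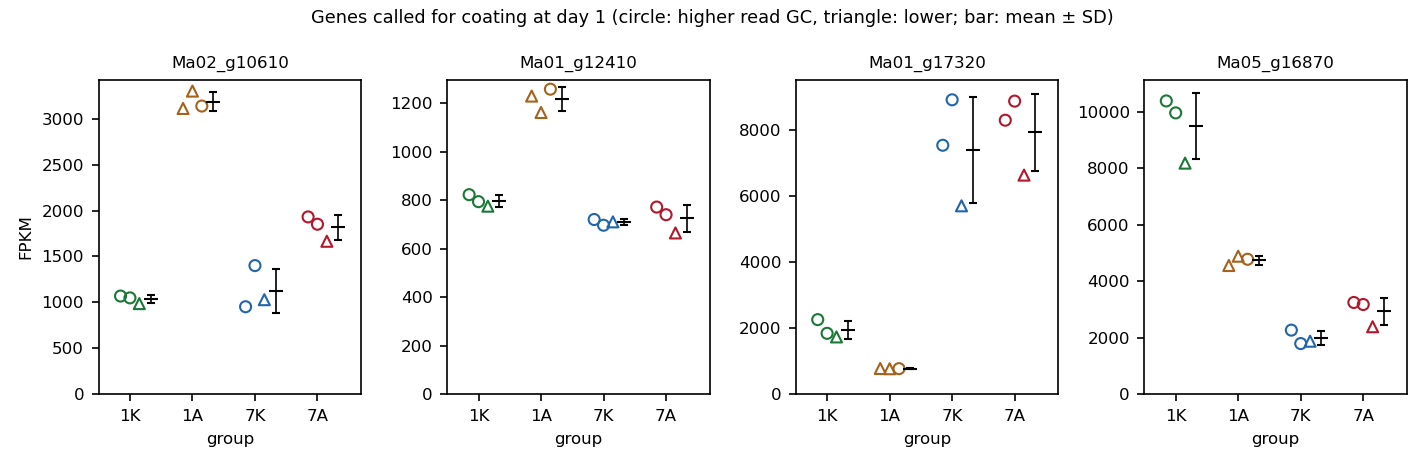
FPKM in each library, by group, of the 4 genes called between coated and control fruit at day 1; circles are libraries of higher and triangles of lower read GC, and the bars are the mean ± SD of 3 libraries. In each panel the 3 values of 1A lie apart from the 3 of 1K, and those of Ma02_g10610 and Ma01_g12410 are the highest of all groups.

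With the read GC group as a block, further genes among the 65 differed at day 1. Ma02_g19350 was at 11455, 11279 and 3642 in 1A against 9548, 10022 and 25789 in 1K, a log2 difference of -1.32 with a standard error of 0.10 in the fit with the block (limma, adjusted p = 3.06e-06), whereas without the block the groups overlap and the adjusted p is 0.69. Ma04_g14530 was higher in coated fruit by 0.73 with the block (limma, adjusted p = 0.0083) and had an adjusted p of 0.31 without it. With quantile normalization added to the block, the count was 9 higher and 14 lower, against 4896 of the 19746 tested genes called in either direction.

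At day 7, 0 of the 65 genes differed between coated and control fruit (limma, adjusted p under 0.05, against 0.142% of tested genes, 0.0810% higher and 0.0608% lower). With limma's voom on the implied fragments the count was also 0, against 17 of the 19746 tested genes. At an unadjusted p under 0.05 there were 4. The like count over all tested genes is not given here, so this number is not read as particular to the 65. Values of the groups did not overlap for 6 of the 65 genes (11.8% of tested genes). These were Ma02_g10610, Ma05_g16870, Ma04_g04750, Ma03_g05660 and Ma04_g08270, which were higher in coated fruit, and Ma06_g18530, which was lower. With the read GC group as a block 13 differed (9.08% of tested genes), 8 of them higher (1.87% of tested genes) and 5 lower (7.20%). The replicate letters of 7K and 7A varied together, and with the replicate as a block in these 6 libraries the count was again 0 (0.349% of tested genes). In both groups replicate c is the library of lower read GC, so letter and read GC cannot be told apart. Under the read GC block the largest difference was 0.71 for Ma02_g10610 on the higher side and -0.59 for Ma06_g09320 on the lower side (limma, adjusted p = 0.022), which was at 764, 713 and 1088 in 7A against 1042, 1416 and 1378 in 7K.

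The change from day 1 to day 7 differed between coated and control fruit for 2 of the 65 genes (interaction term, limma, adjusted p under 0.05, against 2.38% of tested genes). Both terms were positive (0.674% of tested genes) and 0 were negative (1.71%). The genes were Ma05_g16870 and Ma01_g17320, whose interaction terms were 1.56 with a standard error of 0.30 (limma, adjusted p = 0.026) and 1.44 with a standard error of 0.32 (limma, adjusted p = 0.045). For Ma05_g16870 the day 7 level was further below day 1 in control fruit, and for Ma01_g17320 it was further above day 1 in coated fruit. Beside the day 1 values given above, 7A and 7K stood at 2936 ± 477 against 1977 ± 254 for the former and at 7947 ± 1165 against 7397 ± 1613 for the latter (SD, n = 3 each). The count is small and rests on single libraries. It was 0 without 1K_a, 1K_b, 1A_a, 1A_b, 1A_c, 7K_b, 7K_c, 7A_a or 7A_b, each left out in turn, 1 without 1K_c or 7K_a, and 2 without 7A_c. Over all tested genes the calls numbered 470 with every library. They numbered 161 to 364 where the count among the 65 was 0, 368 and 418 where it was 1, and 504 without 7A_c. The read GC block raised the count among the 65 to 24, 18 with a more positive (5.91% of tested genes) and 6 with a more negative change (14.1%) in coated fruit, both Ma05_g16870 and Ma01_g17320 included.

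The order of the genes within a library does not depend on scaling, and its shifts differed widely among the 65. Ranks run from 1 for the highest FPKM of a library. The lowest rank reached by any of the 65 genes was 193, and the median range of rank over the 12 libraries was 43 places. Ma03_g16510 was at rank 1 throughout, and it was the single gene in the top 10 of every library. In all, 22 genes entered the top 10 of some library, 20 of them among the 65. The next narrowest ranges were those of Ma03_g28030, between ranks 19 and 26, and Ma07_g19730, between ranks 9 and 17.

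The widest range of rank belonged to Ma03_g10270, Ma03_g05660 and Ma06_g18530. Ma03_g10270 (chromosome 3, 7715973 to 7717741) ran between ranks 28 and 174, with a median rank of 59 in 1K and 40 in 7K, against 158 in 1A and 35 in 7A. Its FPKM of 1343 to 2958 in the libraries of higher read GC lay above the 571 to 1139 in those of lower read GC, so the low median of 1A goes with its 2 libraries of lower read GC. Ma03_g05660 (chromosome 3, 3884664 to 3886651) had a median rank of 47 in 1K and 120 in 7K, against 86 in 1A and 96 in 7A. Ma06_g18530 climbed from a median rank of 99 in 1K to 3 in 7K and from 124 in 1A to 5 in 7A. Ma01_g17320 went from 45 in 1K to 10 in 7K and from 117 in 1A to 9 in 7A. Ma06_g29580 dropped from 6 in 1K to 80 in 7K and from 8 in 1A to 54 in 7A.

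Between the group medians, the absolute shift in rank had a median of 14 places by day in control fruit and 19 in coated fruit, and of 11 places by coating at day 1 and 4 at day 7. Ranks at day 1 and day 7 were fully separate for 32 of the 65 genes in control fruit (53.3% of tested genes) and for 35 in coated fruit (54.2%). By coating they were separate for 15 genes at day 1 (24.5%) and for 7 at day 7 (9.93%). These are descriptions of the libraries and carry no test.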

How the data were processed

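RNA of fruit pulp was sequenced in 12 libraries, 3 biological replicates in each of the 4 groups given by the labels. The authors mapped the reads with TopHat to DH Pahang version 2 and deposited gene FPKM values with their confidence bounds, made with Cufflinks. Settings are not given in the sources used here, and the tables hold no counts. A single row has no ID and is 0 throughout, another ID is repeated, and 1 value of another gene is marked as failed.

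From the FPKM, log2(FPKM + 1) was fitted with limma 3.58.1 in R 4.3.3, with an intensity trend and a mean for each group, over 19746 genes, those that reached an FPKM of 1 in 3 or more libraries. All 65 abundant genes passed this filter. Adjusted p-values are limma's, by Benjamini-Hochberg over all tested genes, and a fold change on this scale is understated for low genes. Exact permutation tests, two-sided, of the shares were run in Python 3.11.15 with pandas 2.3.3 and numpy 2.4.6. Figures were drawn with matplotlib 3.10.9. The fit was tested on simulated data. Implied fragments were taken from the upper bound, by squaring the ratio of 2 FPKM to the distance from that bound. They equal fragment counts only where the bounds hold counting error alone, which is not so for Ma03_g13710.

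The read GC groups were taken from the study's read statistics, not from expression. The correlation of deviations between libraries of the same replicate letter was 0.50 to 0.84 for 1K with 7K and 0.47 to 0.85 for 7K with 7A, and -0.87 to -0.61 for 1K with 1A and -0.78 to -0.58 for 1A with 7A, so the letters were read as a pairing only in the first 2 of these comparisons. Replicate c is the library of lower read GC in 1K, 7K and 7A, while in 1A these are a and b. A pairing by letter and the read GC split therefore cannot be told apart. A replicate block over all 12 libraries was run as an alternative. The genes named were the 10 with the highest mean FPKM, the 3 largest rises and falls called in each comparison without overlap, the 3 narrowest and the 3 widest ranges of rank, and the 3 on either side of the limit. Others were named after their values were seen. These genes, lists and tests were chosen with earlier results of these data known. The alternatives were other pseudocounts, filters, scalings and limits, voom on implied fragments, limma without a trend, blocks, fits of fewer libraries, and each library left out in turn.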

Additional observations from a re-analysis of the deposited data

Results flagged for a closer look

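For 2 of the 65 genes the effect of coating was not the same at day 7 as at day 1, by the interaction term of the fit. For Ma05_g16870 the term was 1.56 on the log2 scale (limma, adjusted p = 0.026), with all 3 coated values below the 3 control values at day 1 and all 3 above them at day 7. For Ma01_g17320 the term was 1.44 on the log2 scale (limma, adjusted p = 0.045), with all 3 coated values below the 3 control values at day 1 and overlapping values at day 7. Over their alternatives the adjusted p ran from 1.07e-04 to 0.51 for Ma05_g16870 and from 3.14e-04 to 0.38 for Ma01_g17320 (limma).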

How the results depend on the processing

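With an FPKM limit of 250 or 1000 in place of 500 in every library, 130 and 30 genes would be taken in place of 65. With the read GC group as a block, the number of the 65 genes called was 51 for day in control fruit, 52 for day in coated fruit, 30 for coating at day 1, 13 for coating at day 7 and 24 for the interaction, against 26, 32, 4, 0 and 2 without it. Chosen after seeing the data, quantile normalization added to that block gave 45 (control), 45 (coated), 23, 8 and 15, and the libraries of higher read GC alone gave 50, 43, 12, 0 and 14. Among the libraries of higher read GC, 1A keeps a single library. The counts of that fit for day in coated fruit, coating at day 1 and the interaction rest on it and are not read. Its counts for day in control fruit and for coating at day 7 stand against 13924 and 69 of the 19746 tested genes. With no filter on low values the counts were 16, 17, 2, 0 and 0, and the cause was not tested. Genes called in that fit numbered 9558, 9621, 1304, 84 and 616 of 35272. At day 1, coating gave 2 with median-of-ratios scaling (1350 of the 19746 tested genes) and 2 with the 6 libraries compared alone (591). The interaction gave 0 with a common FPKM sum (288 of the 19746 tested genes) and 0 with the replicate block (221). The replicate block over all 12 libraries, whose letters do not pair 1A with the other groups, gave 22, 29, 3 and 0 for the other comparisons. Of the 19746 tested genes 8809, 9082, 807 and 2 were called there. In the 6 control libraries alone, an alternative also chosen after seeing the data, the replicate block gave 48, against 14484 of tested genes. Leaving out each library in turn gave 19 to 28, 24 to 33, 2 to 4, 0 to 0 and 0 to 2 calls, and 65 to 68 abundant genes. Over all tested genes these fits called 7384 to 10096, 7348 to 11089, 528 to 1351, 3 to 24 and 161 to 504.

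By exact permutation test, the share of the FPKM sum, day 7 minus day 1 within coating (-5.16 points), had an unadjusted p under 0.05 with a limit of 250 (-6.56 points, p = 0.04), without the highest gene (-5.63, p = 0.01) and within read GC groups (-3.58, p = 0.028), but not with a limit of 1000 (-6.47, p = 0.055) or in implied fragments (-6.31, p = 0.05). These p-values were not adjusted for the 6 comparisons of the share. The difference ran from -6.71 to -4.15 with each library left out (exact p = 0.03 to 0.14), -8.54 to -3.99 in control and -7.41 to -2.58 in coated fruit. With the replicate block, which leaves the difference at -5.16 points by construction and also pairs 1A with 7A, the p was 0.125 (two-sided exact permutation tests). Coated minus control within days (-0.0826 points) turned to 0.347 with a limit of 250, 0.263 with a limit of 1000, 0.106 without the highest gene and 0.332 in implied fragments, and ran from -1.63 to 1.18 with each library left out. At day 1 it turned to 0.254 in implied fragments and ran from -2.66 to 1.41, and at day 7 it ran from -2.33 to 3.29. Of 894 settings over the 34 calls of named genes, 802 kept the call, 92 lost it and 0 turned its direction. The interval of the deposited bounds was at most 4.55% of a value on either side, below the median spread of 21.7% between libraries of a group.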

Other observations

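Neighbouring genes among the 65, looked at after their values were seen, did not all go together. Ma03_g11490 and Ma03_g11500 lie 2099 bp apart on chromosome 3, and both were higher in the libraries of lower read GC in all 4 groups, by 2.50 to 3.03 times and 2.30 to 2.83 times. Ma01_g20340 and Ma01_g20350 lie 33062 bp apart on chromosome 1. The former was 8.28 to 12.2 times lower in the libraries of lower read GC, with 853 to 1699 against 8162 to 15900.2, whereas Ma01_g20350 had 2751 to 4636 against 2013 to 3559. Ma08_g23500 and Ma08_g23510 lie 7818 bp apart on chromosome 8. Ma08_g23510 fell by day 7 in control fruit, from 3607 ± 93.9 to 993 ± 206, and in coated fruit, from 2817 ± 173 to 1054 ± 113 (SD, n = 3 each; limma, adjusted p = 2.24e-05 and 1.44e-04), while Ma08_g23500 was at 737 ± 79.6 and 863 ± 178 in control and 773 ± 105 and 720.4 ± 61.7 in coated fruit (adjusted p = 0.4 and 0.7).

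The steadiest level among the 65 genes was that of Ma07_g22290 on chromosome 7. Its FPKM was 851, 900.0 and 989.6 in 1K, 868, 885 and 849 in 1A, 859, 757 and 897 in 7K and 739, 763 and 674 in 7A, and the highest of these values was 1.47 times the lowest. It was named after its values were seen.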
